A study of Mus musculus with 8 samples.

Results

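Lgr5, Olfm4, Ascl2, Smoc2, Aqp1, Axin2, Rnf43, Znrf3, Sox9 and Slc12a2 mark the base of the intestinal crypt, where the stem cells of the gut epithelium lie between Paneth cells. These 10 genes were taken by name, through their gene identifiers, from 16958 genes with values, and all 10 were found and passed a filter that asked for 1 FPKM or more on average over the 6 libraries. FPKM stands for fragments per kilobase of gene, scaled to the size of the library. Lgr5 passed it narrowly, at a mean of 1.035 FPKM. RNA came from crypts of C57BL/6 mice aged 8 weeks. The WT library was from a mouse labelled setdb1fl/fl, and 5 further libraries were from mice labelled setdb1 iIEC-KO. Their titles are VEMD2, VEMD3, VEMD4, VEMD6 and VEMD8, and values listed for the knockouts always run in this order. Setdb1 encodes a methyltransferase of lysine residues in histone H3. In the knockouts a recombinase under the Villin promoter, active throughout the gut epithelium and not in stem cells alone, is switched on by tamoxifen. All mice, WT littermates included, had 1 dose of 800 mg/kg by gavage. Each group is 1 library, so no value below carries an error, no difference could be tested, and "higher" or "lower" describes these libraries alone. The labels give no meaning for VEMD, so its number serves only as a name.

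Crypt stem cells divide under Wnt signals. R-spondins bind Lgr5 and its relatives and thereby restrain Rnf43 and Znrf3, membrane ubiquitin ligases that remove Wnt receptors from the cell surface. The signal then passes through beta-catenin to target genes that include Axin2, Ascl2, Sox9, Rnf43, Znrf3 and Lgr5 itself, so several of these genes are both parts of the pathway and its outputs. Olfm4 depends on Notch signals as well, and Sox9 is also made by Paneth, enteroendocrine and tuft cells.

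The 10 genes did not move as a block. Lgr5, Olfm4, Smoc2 and Aqp1 were below their WT level in all 5 knockout libraries. Ascl2, Axin2, Znrf3, Sox9 and Slc12a2 were above it in VEMD2, VEMD3 and VEMD4 and below it in VEMD6 and VEMD8, and Rnf43 was above it in every library but VEMD8. Of the 10862 genes that passed the filter, 20.8% lay below WT throughout and 12.4% had the pattern of Ascl2 and its companions. None of the 10 was at least 2-fold lower or higher in all 5, against 0.626% and 0.571% of all genes, and 17.0% of all genes were higher than WT in all 5 by any amount. The directions in VEMD2 and VEMD8 include small ones: with libraries rescaled to epithelial genes, Olfm4 and Smoc2 were above WT in VEMD2, and Ascl2, Znrf3, Sox9, Rnf43 and Slc12a2 above WT in VEMD8. In bulk RNA, fewer cells of a type and less RNA per cell cannot be told apart.

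**Figure D1:**
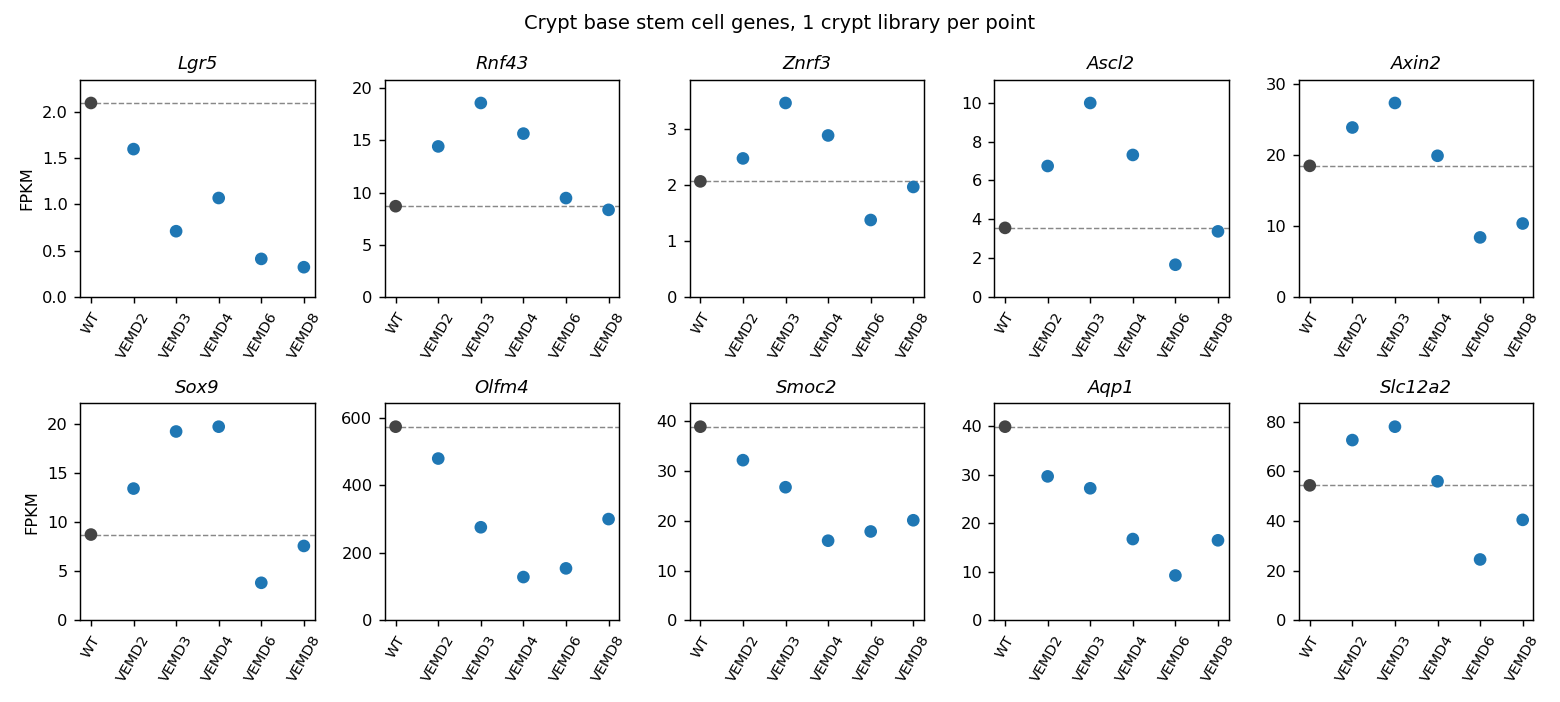
Level of each of the 10 genes in FPKM (linear axis from 0, scaled for each gene) in the 6 crypt libraries, 1 point per library, with the WT level as a dashed line. Lgr5, Olfm4, Smoc2 and Aqp1 lie under the dashed line in all 5 knockout libraries, while Rnf43, Znrf3, Ascl2, Axin2, Sox9 and Slc12a2 lie over it in VEMD2, VEMD3 and VEMD4.

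Promoter sequences are shown for 2 genes of each kind, Olfm4 and Aqp1 below WT throughout, and Ascl2 and Axin2 with the other pattern. They run from 250 bases before to 50 bases after a start site, 5′ to 3′ on the gene's strand, from RefSeq on GRCm38.p6, with every CG dinucleotide in capitals. The site is the annotated start of the gene for Olfm4, Aqp1 and Ascl2. For Axin2 it lies 2521 bases inside the gene as annotated, so its window is not at the gene's outermost start. The table used holds such windows for 5 of the 10 genes.
Olfm4, chr14:80000052-80000351, plus strand: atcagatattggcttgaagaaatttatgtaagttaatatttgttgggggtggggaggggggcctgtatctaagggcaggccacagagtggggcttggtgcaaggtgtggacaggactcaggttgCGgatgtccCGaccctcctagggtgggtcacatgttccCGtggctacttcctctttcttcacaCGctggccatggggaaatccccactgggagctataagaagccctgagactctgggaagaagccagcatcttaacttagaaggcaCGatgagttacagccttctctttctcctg
Aqp1, chr6:55336049-55336348, plus strand: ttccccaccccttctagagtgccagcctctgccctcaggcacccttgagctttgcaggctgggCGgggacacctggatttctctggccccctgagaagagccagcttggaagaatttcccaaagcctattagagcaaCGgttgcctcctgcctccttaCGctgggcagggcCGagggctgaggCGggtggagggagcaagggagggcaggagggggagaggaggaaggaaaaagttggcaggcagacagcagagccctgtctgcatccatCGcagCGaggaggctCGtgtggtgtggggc
Ascl2, chr7:142969215-142969514, minus strand: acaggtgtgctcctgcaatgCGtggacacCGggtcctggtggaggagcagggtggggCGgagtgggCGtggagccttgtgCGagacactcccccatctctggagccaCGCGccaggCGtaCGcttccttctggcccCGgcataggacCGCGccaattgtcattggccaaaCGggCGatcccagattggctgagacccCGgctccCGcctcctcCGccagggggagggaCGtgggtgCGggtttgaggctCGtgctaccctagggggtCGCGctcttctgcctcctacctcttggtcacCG
Axin2, chr11:108920099-108920398, plus strand: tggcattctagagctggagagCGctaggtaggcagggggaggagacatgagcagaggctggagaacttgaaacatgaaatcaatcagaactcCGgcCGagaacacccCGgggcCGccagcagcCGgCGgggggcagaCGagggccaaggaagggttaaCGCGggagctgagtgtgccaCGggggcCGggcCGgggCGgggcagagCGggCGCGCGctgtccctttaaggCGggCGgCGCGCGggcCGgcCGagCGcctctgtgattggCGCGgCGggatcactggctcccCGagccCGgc
The windows of Olfm4 and Aqp1 hold 5 and 8 CG dinucleotides, and those of Ascl2 and Axin2 hold 23 and 31, against a median of 7 over 32851 windows. Rnf43 has 2 windows in the table, with 10 at the gene's start and 3 at a site 36810 bases inside it. The letters CTTTGAT and CTTTGAA, forms of the site bound by the TCF and LEF partners of beta-catenin, were searched on both strands, as was GTGGGAA, a form of the site of the Notch partner RBPJ. CTTTGAT is in 3.73% of all windows, CTTTGAA in 5.14% and GTGGGAA in 6.38%. None of the 3 occurs in the windows of these 5 genes, which says only that these letters are not within those 300 bases.

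Lgr5 (gene 14160, chromosome 10, 115450314 to 115587780 on GRCm38) encodes the R-spondin receptor that marks cycling stem cells. Its level was 2.1 FPKM in WT, against 1.6, 0.71, 1.07, 0.41 and 0.32 in the knockouts in turn. All 5 knockout libraries lay below WT, and VEMD6 and VEMD8 lay lowest, at 19.5% and 15.2% of the WT level. The filter averages all 6 libraries, and Lgr5 passed it only through its level in WT. Its place among the genes below WT is therefore not independent of that filter. Differences are given from here on as log2 ratios to WT after 1 FPKM was added to both values, which understates those of low genes such as this. On that scale Lgr5 differed by -0.25, -0.86, -0.58, -1.14 and -1.23 from VEMD2 to VEMD8. With a pseudocount of 0.1 FPKM the ratio of VEMD3 was -1.44 and that of VEMD8 -2.39. Lgr5 was also the least abundant of the 10 genes in every knockout library. The gene A930009A15Rik overlaps Lgr5 and was at most at 0.12 FPKM in any library.

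Rnf43 (gene 207742, chromosome 11, 87663087 to 87735539), the first of the ligases that Lgr5 and R-spondin hold back, was at 8.69 FPKM in WT, and the knockouts held 14.4, 18.6, 15.7, 9.47 and 8.34 in turn. VEMD2, VEMD3 and VEMD4 were the 3 highest libraries, and VEMD6 and VEMD8 were at 109% and 96.0% of WT. Its log2 ratio reached 1.02 in VEMD3, or 0.90 with libraries rescaled to the median gene. Znrf3 (gene 407821, chromosome 11, 5276329 to 5444847), the second ligase, had 2.06 FPKM in WT, with 2.47, 3.46, 2.88, 1.37 and 1.96 across the knockouts. VEMD3 was again the highest library and VEMD6 the lowest, and the largest log2 ratio was 0.54. Within each library Znrf3 stood at 0.237 times the level of Rnf43 in WT and at 0.145 to 0.235 times in the knockouts, below WT in all 5.

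Ascl2 (gene 17173, chromosome 7, 142966822 to 142969264), the transcription factor that maintains stem cell identity, was at 3.55 FPKM in WT, with 6.74, 9.99, 7.31, 1.65 and 3.37 across the knockouts. VEMD3 was 2.81 times the WT level and VEMD6 46.5% of it, while VEMD8 was close to WT. The log2 ratios were 0.77, 1.27, 0.87, -0.78 and -0.06. In VEMD2, VEMD3 and VEMD4, 4.88%, 3.42% and 8.77% of tested genes had a higher ratio than Ascl2.

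Axin2 (gene 12006, chromosome 11, 108917828 to 108950783) encodes a scaffold of the complex that degrades beta-catenin and is a widely used readout of Wnt signals. Its level was 18.5 FPKM in WT, with 23.9, 27.3, 19.9, 8.37 and 10.3 across the knockouts. VEMD4 was near WT, VEMD2 and VEMD3 were higher, and VEMD6 and VEMD8 were at 45.3% and 55.9% of WT. The log2 ratio of VEMD6 was -1.06, and -0.84 after rescaling to the median gene, which left it short of 2-fold.

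Sox9 (gene 20682, chromosome 11, 112782210 to 112787757), a transcription factor of the crypt base, was at 8.74 FPKM in WT, against 13.4, 19.2, 19.7, 3.83 and 7.58 in the knockouts in turn. Its log2 ratios ran from 1.09 in VEMD4 to -1.01 in VEMD6, and 5.02% of tested genes spanned more. Without a pseudocount the highest knockout library was 5.15 times the lowest for Sox9 and 6.05 times for Ascl2. Both ends lie close to 2-fold, and after rescaling to the median gene that of VEMD6 was -0.82.

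**Figure D2:**
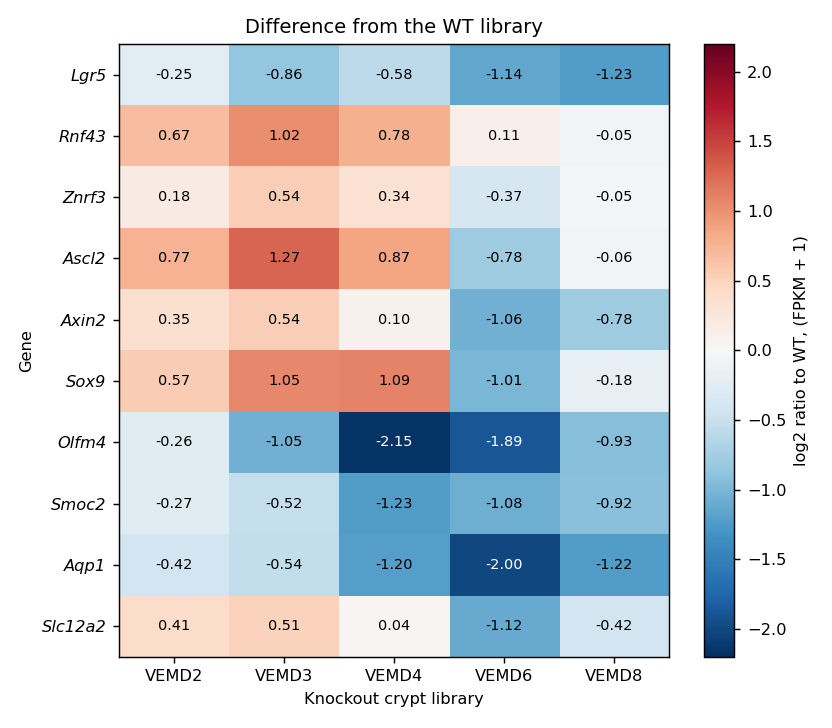
Log2 ratio of each gene (rows) to the WT library in each knockout library (columns), after 1 FPKM was added to both values, with blue for lower and red for higher. The lowest cells are Olfm4 in VEMD4, at -2.15, and Aqp1 in VEMD6, at -2.00, and the highest is Ascl2 in VEMD3, at 1.27.

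Olfm4 (gene 380924, chromosome 14, 80000302 to 80023141), a secreted glycoprotein, was the most abundant of the 10 genes in all 6 libraries. Its level was 574 FPKM in WT, and the knockouts held 480, 276, 129, 154 and 300 in turn. It was lowest in VEMD4, at 22.4% of the WT level, where 0.911% of tested genes had a lower ratio. VEMD8 lay between VEMD2 and VEMD3 and was 1.95 times the level of VEMD6. The log2 ratios were -0.26, -1.05, -2.15, -1.89 and -0.93.

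Smoc2 (gene 64074, chromosome 17, 14279490 to 14404790), a secreted protein of the matrix, had 38.9 FPKM in WT, against 32.2, 26.7, 16.0, 17.9 and 20.1 in the knockouts in turn. Its lowest library was VEMD4, at 41.2% of WT, with VEMD6 and VEMD8 only slightly above. The log2 ratio was -1.23 in VEMD4 and -1.08 in VEMD6, the latter -0.86 after rescaling to the median gene.

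Aqp1 (gene 11826, chromosome 6, 55336299 to 55348555), a water channel, was at 39.9 FPKM in WT, with 29.7, 27.2, 16.8, 9.25 and 16.5 across the knockouts. VEMD6 was at 23.2% of WT, with a log2 ratio of -2.00 that 1.02% of tested genes fell below. Aqp1 is also abundant in the lining of blood vessels and in red blood cells. Of 11 vessel markers, 9 had values, and they summed to 2.86 FPKM in WT and 1.48 to 4.35 in the knockouts. The vessel receptor gene Kdr was listed at 0 in all libraries but VEMD4, and the globin gene Hba-a1 was at most at 1.2 FPKM.

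Slc12a2 (gene 20496, on chromosome 18), the sodium, potassium and chloride cotransporter of crypt cells, was at 54.4 FPKM in WT, against 72.6, 78.0, 56.0, 24.6 and 40.5 in the knockouts in turn. It followed Axin2, with VEMD4 near WT and VEMD6 lowest. The log2 ratio of VEMD6 was -1.12, or -0.89 after rescaling to the median gene. Slc12a2 held the second place in level among the 10 genes in every library.

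Counted library by library, 0 of the 10 genes were 2-fold from WT in VEMD2, where 2.44% of all tested genes were higher and 2.39% lower by that much. In VEMD3 there were 3 higher (Ascl2, Sox9 and Rnf43) and 1 lower (Olfm4), against 6.0% and 4.63% of tested genes. In VEMD4 there were 1 higher (Sox9) and 3 lower (Olfm4, Smoc2 and Aqp1), against 7.11% and 5.04%. In VEMD6, 7 of 10 were lower, all but Ascl2, Rnf43 and Znrf3, and none was higher, against 8.15% and 5.04% of tested genes. That 7 became 3 (Lgr5, Olfm4 and Aqp1) after rescaling to the median gene, since 4 of the ratios lay between -1.01 and -1.12. In VEMD8, 2 were lower (Lgr5 and Aqp1) and none higher, against 5.21% and 4.36%. The median log2 ratio of the 10 genes was 0.27, 0.53, 0.07, -1.07 and -0.60 from VEMD2 to VEMD8, beside 0.09, 0.12, 0.03, -0.23 and -0.06 over all tested genes.

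Because every ratio above shares the WT library, knockout libraries were also set against each other. VEMD6 against VEMD4 separated the genes most: Ascl2, Axin2, Sox9 and Slc12a2 were at least 2-fold lower in VEMD6, at log2 ratios of -1.65, -1.16, -2.10 and -1.16, while 9.62% of tested genes were that much lower. None was 2-fold higher there, against 4.87%. After rescaling to the median gene 2 of the 4 remained past 2-fold. Olfm4 and Smoc2 went the other way there, at 0.26 and 0.15. In VEMD4 against VEMD3 only Olfm4 was 2-fold lower, at -1.10, against 0.552% of tested genes, and none was 2-fold higher, against 2.58%. No gene of the 10 was 2-fold apart between VEMD3 and VEMD2, where 1.44% of tested genes were higher and 1.11% lower, or between VEMD8 and VEMD6, where 1.45% were higher and 2.22% lower. In VEMD8 against VEMD6, 8 of the 10 were higher, by up to 0.96 for Olfm4, and Lgr5 and Rnf43 were lower, at -0.10 and -0.16.

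The ratio of 2 genes within a library needs neither a scaling of libraries nor a pseudocount. Pairs with Lgr5 were chosen after its values were seen, and they rest on Lgr5 values of 0.32 to 2.1 FPKM whose counting error is unknown. The level of Ascl2 over that of Lgr5 was 1.69 in WT, with 4.21, 14.1, 6.83, 4.02 and 10.5 across the knockouts. The library with the lowest Ascl2, VEMD6, was thus still above WT in this ratio. Rnf43 stood at 4.14 times Lgr5 in WT and between 9.02 and 26.2 times in the knockouts, and Znrf3 at 0.981 times in WT and between 1.54 and 6.12 times. Axin2, Sox9 and Slc12a2 over Lgr5 were likewise above WT in all 5 knockout libraries. Olfm4, Smoc2 and Aqp1 over Lgr5 were not: in VEMD4 they were 0.439, 0.808 and 0.824 times the WT ratio, and in VEMD8 3.43, 3.39 and 2.71 times. Lgr5 was below WT in all 5, so a gene that fell less than Lgr5, or rose, was above WT in this ratio. In VEMD2, VEMD3 and VEMD4 the outcome was thus fixed for Ascl2, Rnf43, Znrf3, Axin2, Sox9 and Slc12a2, which were above WT themselves. The share of all tested genes above WT over Lgr5 was not counted.

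**Figure D3:**
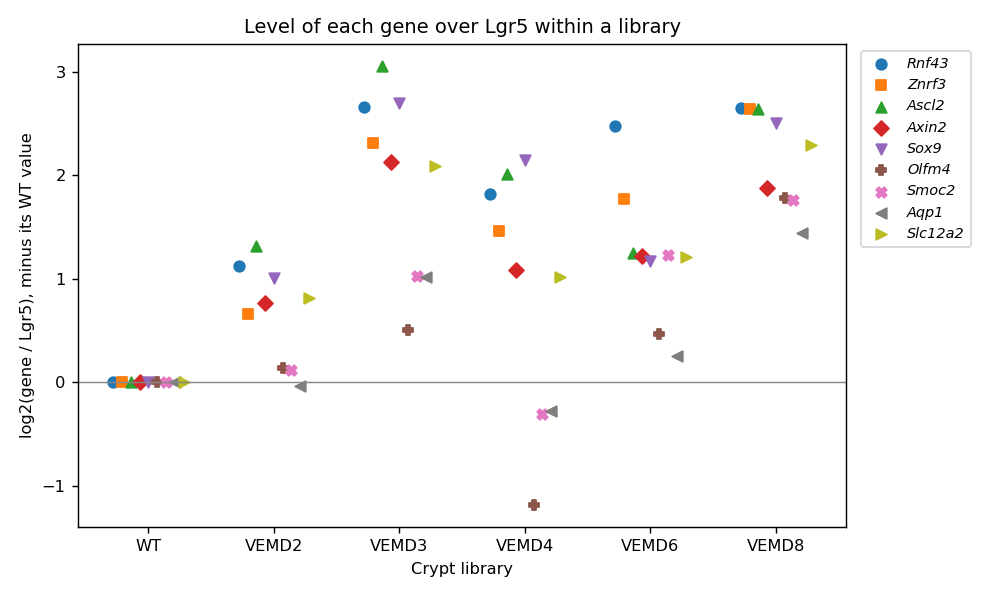
Log2 of each gene's level over that of Lgr5 in the same library, minus the value in WT, for the 6 crypt libraries, 1 point per gene and library. Rnf43, Znrf3, Ascl2, Axin2, Sox9 and Slc12a2 lie above 0 in all 5 knockout libraries, whereas Olfm4, Smoc2 and Aqp1 lie below 0 in VEMD4. Lgr5 itself was below WT in every knockout library, which raises all of these ratios.

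The 10 genes also paired up across libraries. Over the 6 libraries the log2 values of Ascl2 correlated with those of Znrf3 at 0.99, Sox9 at 0.98 and Slc12a2 at 0.92, and those of Olfm4 with Smoc2 at 0.94 and Aqp1 at 0.83. Ascl2 and Olfm4 were at 0.09, and Lgr5 was closest to Aqp1, at 0.80. These are descriptions over 6 libraries that share their scaling. Among 8172 other genes averaging 5 FPKM or more, Sox4, a transcription factor of the same family, was the most like Sox9, at 0.998, followed by Nsmaf and Cdc42ep1. Sox4 was at 4.89 FPKM in WT, 9.54 in VEMD3, 9.19 in VEMD4 and 2.41 in VEMD6. Most like Ascl2 were the RNA helicase gene Ddx47, Wdr46 and Eef1e1, each at 0.997 or 0.998. Lgr5 was most like Pigv, an enzyme of lipid anchors, at 0.990, Apol10b at 0.979 and Pip4p1 at 0.964, and Olfm4 most like Zbtb8os, Tmem97 and Far2, at 0.984 to 0.989. Apol10b had 23.9 FPKM in WT and 1.55 in VEMD8, and Pigv had 7.74 and 4.94, so a like profile did not mean a like size of difference.

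The rest of the Wnt pathway was described from lists. Of 16 ligands and receptors, 7 passed the filter, and none was 2-fold higher in any library, against 2.44% to 7.11% of tested genes. In VEMD4, VEMD6 and VEMD8, 1, 3 and 1 were 2-fold lower, against 5.04%, 8.15% and 5.21%. Counts of this and the later lists were not repeated under other scalings or pseudocounts. Wls, which carries Wnt proteins out of the cell, was at 15.8 FPKM in WT, and the knockouts held 14.97, 10.1, 4.98, 1.96 and 1.88 in turn. Wnt3, a ligand that Paneth cells supply, was at 2.26 in WT, 3.28 in VEMD2, 0.28 in VEMD6 and 0.74 in VEMD8. Lgr4, the relative of Lgr5 made more widely in the epithelium, was at 45.8 in WT, within the range 34.2 to 41.2 in 4 knockout libraries, and at 21.1 in VEMD6. Of the R-spondins, Rspo1 was at most at 0.13 FPKM and Rspo2 was listed at 0 in all 6 libraries.

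Paneth cell markers lay beside these values. All 12 listed markers passed the filter, and their summed level was 30965 FPKM in WT, with 43854, 22088, 8599, 2492 and 3686 across the knockouts. The most abundant markers weigh most in that sum. In VEMD3 none was 2-fold from WT, where 6.0% of tested genes were higher and 4.63% lower. Log2 ratios of the markers ran from -0.86 to 0.72 there. In VEMD4, VEMD6 and VEMD8, 8, 12 and 10 were 2-fold lower, against 5.04%, 8.15% and 5.21% of tested genes. In VEMD4, 1 was 2-fold higher, against 7.11%. The part of Paneth cells in the levels of Wnt3, Wls and Sox9 was not tested.

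Downstream of the receptor, 14 of 16 genes of Wnt transduction passed the filter. The only one 2-fold from WT in any library was Tcf7, which encodes a DNA-binding partner of beta-catenin. It was 2-fold higher in VEMD2, VEMD3 and VEMD4, as were 2.44%, 6.0% and 7.11% of tested genes. Tcf7 was at 2.13 FPKM in WT, against 8.2, 11.7, 9.77, 2.18 and 3.26 in the knockouts in turn, highest in the same 3 libraries as Ascl2. Dvl2, which relays the signal from the receptor, was next by size, at -0.92 in VEMD6, and Bcl9l, a partner of beta-catenin, was at 0.84 in VEMD3. Ctnnb1, the gene of beta-catenin, had 271 FPKM in WT, and the knockouts ranged from 248 to 307.

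Other Wnt targets, Tcf7 again among them, were also listed. Of 14, 9 passed the filter, and 3, 6 and 4 were 2-fold higher in VEMD2, VEMD3 and VEMD4 with none lower. Of tested genes, 2.44%, 6.0% and 7.11% were higher there, and 2.39%, 4.63% and 5.04% lower. In VEMD6 and VEMD8, 3 and 2 were 2-fold lower, against 8.15% and 5.21%. None was higher, against 5.04% and 4.36%. Cd44, a surface receptor of crypt cells, was at 11.4 FPKM in WT, and the knockouts held 34.6, 56.1, 48.6, 13.7 and 18.3 in turn. Ccnd1, a cyclin of the cell cycle, had a different course, at 104 in WT, 103 to 124 in VEMD2, VEMD3 and VEMD4, and 30.1 and 33.2 in VEMD6 and VEMD8.

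Further genes of the Lgr5 stem cell signature also went in both directions. Of 24 listed, 20 passed the filter. Tnfrsf19 and Cdca7 are also among the other Wnt targets above, so they count in both lists. In VEMD3, 9 were 2-fold higher and 1 lower, in VEMD4 6 and 3, and in VEMD6 1 and 4. Of tested genes, 6.0% were higher and 4.63% lower in VEMD3, 7.11% and 5.04% in VEMD4, and 5.04% and 8.15% in VEMD6. Igfbp4, a secreted binder of growth factors, was at 4.72 FPKM in WT, with 18.4, 29.5, 25.4, 3.7 and 7.42 across the knockouts. Vdr, the vitamin D receptor, had 88.3 FPKM in WT and less in each knockout, with 18.7 in VEMD4 as the lowest and 73.2 in VEMD6 as the highest. Phlda1 was above WT in all 5, at 13.5 in WT and 33.8 to 83.5 in the knockouts.

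Of 9 Notch pathway genes, 8 passed the filter, and none was 2-fold higher in any library, against 2.44% to 7.11% of tested genes. In VEMD4, VEMD6 and VEMD8, 1, 3 and 2 were 2-fold lower, against 5.04%, 8.15% and 5.21%. Their log2 ratios in VEMD3 ran from -0.85 to 0.93. Dll4, a Notch ligand, had 5.29 FPKM in WT, with 3.91, 2.5, 1.94, 1.76 and 2.36 across the knockouts. It was below WT in each, as were 20.8% of tested genes. Hes1, a Notch target, had 29.7 FPKM in WT, with 22.6, 29.0, 18.8, 13.2 and 14.3 across the knockouts. Nrarp, another target, had 16.2, 13.8 and 3.76 FPKM in WT, VEMD3 and VEMD6.

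**Figure D4:**
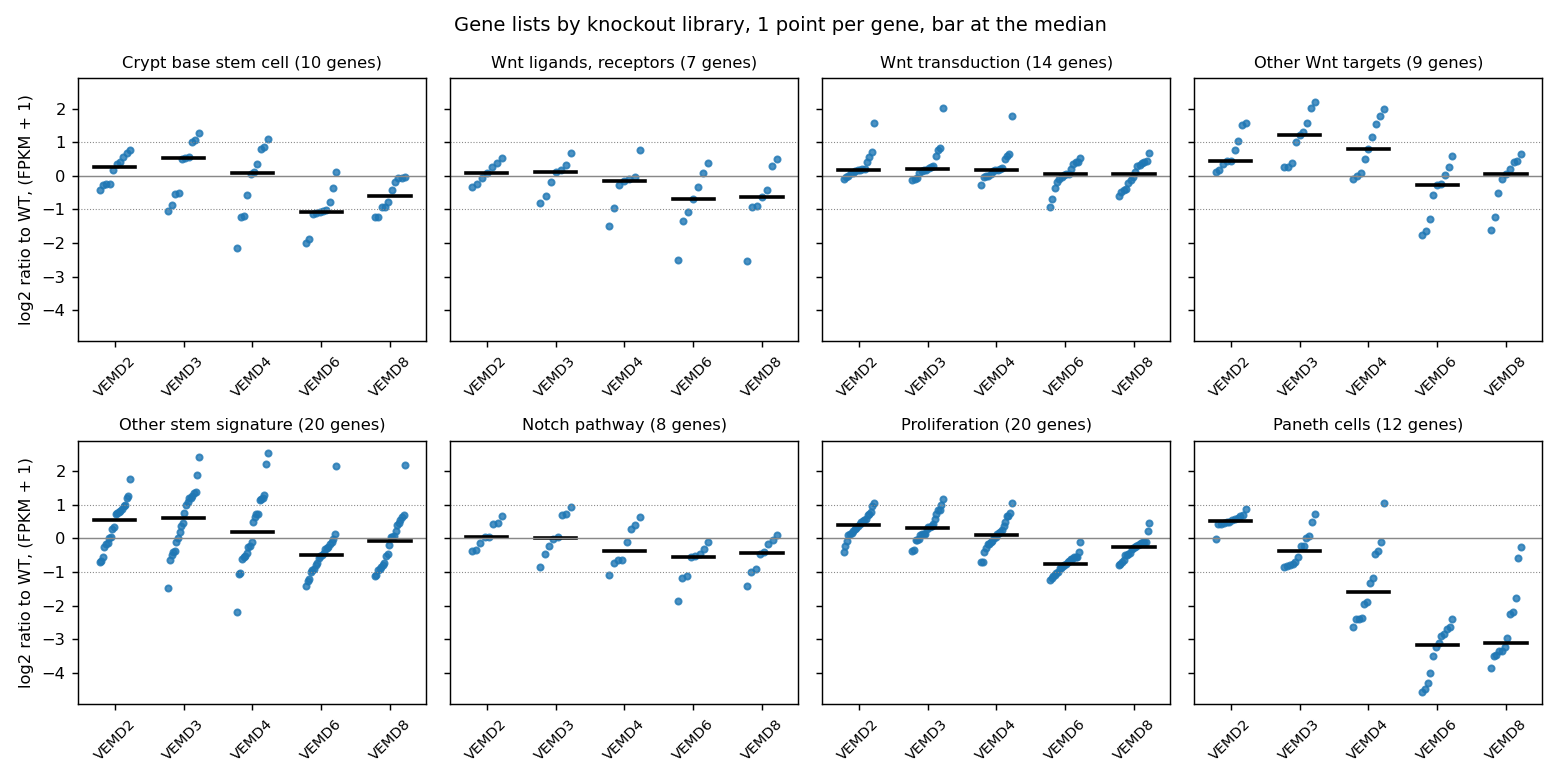
Log2 ratio to WT of the genes that passed the filter in 8 lists, by knockout library, 1 point per gene, with black bars at the medians and dotted lines at 2-fold. Among Wnt transduction genes only Tcf7 passes 2-fold, and other Wnt targets have medians of 1.22 in VEMD3 and -0.29 in VEMD6.

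Markers of other cell types and states differed between the same libraries. Proliferation genes, 20 of 20 tested, had median log2 ratios of 0.40, 0.31, 0.10, -0.77 and -0.26 from VEMD2 to VEMD8. In VEMD6, 6 of them were 2-fold lower, against 8.15% of tested genes, and the lowest ratio was -1.23. Enterocyte markers, 11 of 11 tested, summed to 13247 FPKM in WT, with 5726, 4204, 9437, 26924 and 12680 across the knockouts. In VEMD2, VEMD3 and VEMD4, 6, 10 and 5 of them were 2-fold lower, against 2.39%, 4.63% and 5.04% of tested genes. None was higher there, against 2.44%, 6.0% and 7.11%. In VEMD6 5 were higher and 1 lower, against 5.04% and 8.15%, and in VEMD8 1 and 2, against 4.36% and 5.21%. Goblet cell markers, 8 of 8 tested, summed to 4452 FPKM in WT, with 3989, 2642, 5530, 1019 and 1635 across the knockouts. Of these, 7 were 2-fold lower in VEMD6 and 4 in VEMD8, against 8.15% and 5.21% of tested genes. Markers of enteroendocrine cells, which also make Sox9, 9 of 9 tested, summed to 321 FPKM in WT, with 404, 631, 286, 76.3 and 24.5 across the knockouts. In VEMD3, 4 were 2-fold higher and 0 lower, against 6.0% and 4.63% of tested genes, while Neurog3 was at -0.54. In VEMD6 and VEMD8, 8 and 8 were 2-fold lower, against 8.15% and 5.21%. Of 7 tuft cell markers, 6 had values, summing to 3.93 FPKM in WT and 3.8 to 6.52 in the knockouts, with Gnat3 listed at 0 in 4 libraries. That sum joins markers that went opposite ways. Only 2 passed the filter, and their log2 ratios in VEMD6 were -0.47 and 1.17. Fetal and regenerative genes that passed the filter, 7 of 10 listed, were above WT in all 5 libraries. Over all tested genes that share was 17.0%. The filter averages all 6 libraries, so genes high only in knockouts could pass it. The listed genes that failed it were not all above WT. The part of any of these in the levels of the 10 genes was not tested.

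As checks of the labels, Setdb1 had 9.42 FPKM in WT, and the knockouts ranged from 3.53 to 7.03, below WT in all 5. This direction, shared by 20.8% of tested genes, is a weak check. Setdb1 was at 70.5% and 74.6% of WT in VEMD2 and VEMD3. It was 2-fold lower only in VEMD6, at a log2 ratio of -1.20. A value for the whole gene does not resolve single exons. Epcam, a surface protein of epithelium, was at 700 to 1080 FPKM in the 6 libraries, and 10 stromal markers together never exceeded 2.01. The 8 leukocyte markers summed to 10.75 FPKM in WT and 6.75 to 19.7 in the knockouts, highest in VEMD4. There 2 of the 5 that passed the filter were 2-fold higher, against 7.11% of tested genes. FPKM summed to 585501 in WT and 481519 to 566585 in the knockouts. No counts were used here and the depth of the libraries is unknown, so for Lgr5, Znrf3 and Ascl2, the lowest of the 10, the counting error of a ratio cannot be stated.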

How the data were processed

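RNA of 6 crypt libraries was prepared by BGI-500 protocols, per the labels. Gene values are FPKM as deposited by the authors, with the unit per the file headers. HISAT2, featureCounts and edgeR with GRCm38 and mm10 are named in the submitters' processing notes, without versions or roles, and strand is not given in the sources used here. Whether reads were kept by strand bears on Lgr5, Smoc2 and Rnf43, which overlap other genes. Of 20718 lines, 16958 held values, and 16916 of these got a symbol by gene identifier from RefSeq on GRCm38.p6. Genes averaging 1 FPKM or more over the 6 libraries, 10862 in all, were used for counts and medians. Ratios were log2((FPKM + 1)/(WT FPKM + 1)), and 2-fold was the size named as higher or lower. Low values did not show steps of whole reads: ratios to WT among genes of 0.2 to 1 FPKM filled no bin of 0.05 log2 with more than 5.06% of genes.

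Python 3.11.15 with numpy 2.4.6 and pandas 2.3.3 was used, and the 2-fold rule was tested on simulated data. The 10 genes, the lists and the rules were chosen with earlier results of these data known. Named beside the 10 genes are Setdb1, up to 3 genes per pathway list by the largest ratio in any knockout library, and the 3 genes most like Lgr5, Olfm4, Ascl2 and Sox9 by Pearson r. Rspo1, Rspo2, Ctnnb1, Epcam, Kdr, Hba-a1, Gnat3 and A930009A15Rik stand outside this rule; their values had been seen when they were picked, as for Mki67, Top2a and the reserve stem cell genes. The alternatives were pseudocounts of 0.1 and 5 FPKM, no filter, and libraries rescaled to the median gene, to a sum of 1000000 or to 11 epithelial genes. Stem cell samples were not analysed here, and 2 columns of a repeat table were not used because no label ties them to a sample.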

Additional observations from a re-analysis of the deposited data

Results flagged for a closer look

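With 1 FPKM added to both values, Sox9 lay at least 2-fold above WT in some knockout libraries and 2-fold below it in another. Its log2 ratio was 1.09 in VEMD4 and -1.01 in VEMD6, from levels of 19.7 and 3.83 FPKM against 8.74 in WT. The difference between the libraries was not tested, since each is a single sample. After rescaling to the median gene the ratio of VEMD6 was -0.82, short of 2-fold. Ascl2 met the same description with 0.1 FPKM added, at 1.47 in VEMD3 and -1.06 in VEMD6, but not with 1 FPKM, where VEMD6 was at -0.78.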

How the results depend on the processing

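No paired analysis was possible because a single library stands for each genotype and title. Leaving out any of the 5 knockout libraries in turn left 4 genes below WT throughout and 0 above it, except that 1 (Rnf43) was above it without VEMD8. Rescaling to the median gene shifted the median ratio of all genes by -0.08, -0.11, -0.03, 0.20 and 0.05 from VEMD2 to VEMD8, rescaling to a common sum by 0.05, 0.13, 0.19, 0.25 and 0.23, and rescaling to epithelial genes by 0.34, 0.21, 0.11, 0.25 and 0.38. Of 50 ratios of the 10 genes, 1, 4 and 7 changed sign under these 3 scalings and 0 did under another pseudocount. The median ratio of the 10 genes kept its sign under every alternative, but moved by over 1.5 times in VEMD2 (from 0.27 to 0.59), VEMD4 (from 0.07 to 0.19) and VEMD8 (from -0.60 to -0.19) with libraries rescaled to epithelial genes, in VEMD4 (to 0.27) and VEMD8 (to -0.37) when rescaled to a common sum, and in VEMD4 (to 0.04) when rescaled to the median gene.

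Counts of the 10 genes at least 2-fold apart moved as follows. With 0.1 FPKM added, 2 were lower in VEMD3, 8 lower in VEMD6, 2 higher in VEMD4, 1 lower in VEMD3 than in VEMD2, and 6 lower in VEMD6 than in VEMD4. With 5 FPKM added, 0 were higher in VEMD3 and in VEMD4, 3 lower in VEMD6, 1 lower in VEMD8, and 2 lower in VEMD6 than in VEMD4. Rescaled to the median gene, 1 was higher in VEMD3, 3 lower in VEMD6, 2 lower in VEMD6 than in VEMD4, and 1 above WT throughout. Rescaled to a common sum, 0 were lower in VEMD3, 2 higher in VEMD4, 3 lower in VEMD6 and 1 above WT throughout. Rescaled to epithelial genes, 2 were higher in VEMD2, 0 lower in VEMD3, 3 lower in VEMD6, 1 lower in VEMD8, 1 higher in VEMD8 than in VEMD6, 2 below WT throughout and 1 above.

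Shares of all genes past 2-fold moved too. With 5 FPKM added, 0.783%, 2.38%, 3.53%, 2.92% and 2.33% were higher from VEMD2 to VEMD8, and 1.29%, 2.94%, 2.80%, 3.29% and 2.44% lower. With 0.1 FPKM added, 4.63% were higher in VEMD2 and 12.6% lower in VEMD6. Rescaled to epithelial genes, 7.49%, 9.58%, 8.20% and 10.3% were higher in VEMD2, VEMD3, VEMD6 and VEMD8, and 1.02%, 4.29% and 2.74% lower in VEMD2, VEMD6 and VEMD8. Rescaled to a common sum, 8.87% were higher in VEMD6 and 7.61% in VEMD8, and 5.16% lower in VEMD6, or 4.80% when rescaled to the median gene. Without the filter, 1.62% were higher and 1.58% lower in VEMD2, and 3.30% and 5.396% in VEMD6. The cause was not tested.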

Other observations

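Genes linked to slowly cycling or reserve stem cells were listed too. Tert, the catalytic subunit of telomerase, had 1.05 FPKM in WT, with 4.13, 4.96, 2.25, 0.34 and 0.3 across the knockouts. VEMD2 and VEMD3 were over 2-fold above WT, against 2.44% and 6.0% of tested genes, while VEMD6 and VEMD8 lay below it. Hopx, a homeodomain protein, was above its WT level of 68.7 FPKM in all 5 knockout libraries, with 169 in VEMD3. Of all tested genes, 17.0% were above WT in all 5. Lrig1, which restrains growth factor receptors, had 18.05 FPKM in WT, 27.4 in VEMD3 and 10.7 in VEMD6. Bmi1, of the Polycomb group, had 8.65, 11.2 and 6.34 in those libraries.

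Of the markers of dividing cells, Mki67 had 37.5 FPKM in WT, and the knockouts held 53.1, 41.1, 35.8, 25.2 and 44.2 in turn. Top2a had 81.7 FPKM in WT, and 119, 98.96, 84.9, 45.9 and 76.4 in the same order. VEMD6 was the lowest library for both, and VEMD8, the lowest for Lgr5, was above WT for Mki67 and below it for Top2a. Mki67 was not typical of its list there. The 20 proliferation genes had a median log2 ratio of -0.26 in VEMD8, with a range from -0.79 to 0.46.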
